A study of Homo sapiens with 8 samples.

Results

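The 7 genes described here, AREG, EREG, HBEGF, TGFA, BTC, EPGN and NRG1, encode ligands of the EGF family and were measured in a series of mammary epithelial lines in which some were fed EGF and others were not. They are 7 of the 56632 genes in the count table, and they were chosen by name as a ligand list after their measured levels across the lines with EGF and without it had been seen. The difference between those sets of lines is therefore given below as a description of the members, without a test. EGF-family ligands are made as membrane-anchored precursors, and ADAM proteases cut them free at the cell surface. The released peptides bind ERBB receptors, a family of receptor tyrosine kinases, and switch on the RAS-ERK cascade, which in turn is known to switch on several of the ligand genes. In the mammary gland amphiregulin, the product of AREG, is known as the ligand through which ductal growth is relayed.

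RNA was sequenced from 8 libraries, 2 biological replicates from each of 4 human lines grown as acini in Matrigel for 8 days, in medium with 2% horse serum, hydrocortisone, cholera toxin and insulin. M1 is MCF10A, an immortalized and non-tumorigenic mammary epithelial line. M2 (MCF10AT1k.cl2) came from MCF10A cells transfected with activated T24-HRAS and passed through a xenograft. M3 (MCF10Ca1h) and M4 (MCF10CA1a.cl1) came from carcinomas that grew out of M2 xenografts, M3 forming mostly well-differentiated and M4 mostly undifferentiated tumours. The medium of M1 and M2 held 10 ng/ml EGF, and that of M3 and M4 held none, so line and medium cannot be told apart when the pairs are compared. Each stage of this model is a line of its own, so its replicates measure the spread between cultures of that line and not between independent lines of the same kind.

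Each library held 69669970 to 107350344 counts. Levels are given as counts per 1000000 (CPM) with library sizes scaled by TMM. Replicates were closest in M2, where the SD of the log2 difference between libraries was 0.223, and farthest apart in M1, where it was 0.604. Basal epithelial markers summed to 7497 to 14362 CPM in every library, while 2 of 5 fibroblast markers (COL3A1 and LUM), 1 of 3 endothelial markers measured (CDH5) and 3 of 5 immune markers (PTPRC, CD3E and MS4A1) were under 0.1 CPM throughout. The other markers of these lists were present. The fibroblast markers summed to 9.09 to 59.8 CPM in M1, 72.2 to 74.4 CPM in M2, 9.54 to 15.6 CPM in M3 and 6.09 to 7.52 CPM in M4, with DCN at a mean of 59.4 CPM in M2. The immune markers, mostly CD68, summed to 4.53 to 9.71 CPM in M1, 5.83 to 6.12 CPM in M2, 6.22 to 25.1 CPM in M3 and 39 to 51.4 CPM in M4, and the endothelial markers to between 0.128 and 3.12 CPM in the 8 libraries. HRAS, the gene introduced to make M2, was at 154.1 and 138.7 CPM in M1, 159.8 and 153.5 CPM in M2, 269.3 and 327.1 CPM in M3 and 335.2 and 352.4 CPM in M4. Its level thus did not mark the transfected line M2 apart from M1 (log2 difference 0.10, edgeR adjusted p = 0.74), and it was higher in M3 and M4 than in M1 and M2 (1.08, adjusted p = 0.000484). The counts do not separate the T24 allele from the resident gene. A supplementary listing of the study places the libraries labelled M1 replicate 2 and M2 replicate 1 in each other's line. The numbering of the deposited libraries runs in the order of that listing, while the libraries labelled M2 were the closest replicates. Which assignment is right was not settled here, and the comparison of M2 with M1 is given below under both. The set of 4 libraries with EGF is the same under either.

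EREG, AREG, EPGN and BTC lie together on chromosome 4, within 545547 bp from the start of EPGN to the end of BTC in GRCh37. In GRCh37, the build of the counts, EPGN (ENSG00000182585) spans 75174187 to 75182506, EREG (ENSG00000124882) spans 75230862 to 75254466 and AREG (ENSG00000109321) spans 75310853 to 75320722, all on the plus strand. BTC (ENSG00000174808) spans 75669969 to 75719733 on the minus strand. AREGB (ENSG00000205595), annotated in GRCh37 as a near-identical copy of AREG, lies between AREG and BTC in that build at 75480629 to 75490486. HBEGF (ENSG00000113070) is on chromosome 5 at 139712428 to 139726188 and TGFA (ENSG00000163235) on chromosome 2 at 70674416 to 70781325, both on the minus strand, and NRG1 lies on another chromosome.

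The core promoters of the members that differed between lines in the same medium (AREG, EREG and HBEGF) are shown with that of EPGN, a cluster member called in neither of those comparisons, so that the start regions can be read side by side. Each run is the 100 bases that end just before the RefSeq start site, in GRCh38.p14, read on the strand of the gene, and capitals mark matches to the motifs named after them. The windows are chr4:74445036-74445135 (plus strand), chr4:74365045-74365144 (plus strand), chr5:140346604-140346703 (minus strand) and chr4:74308370-74308469 (plus strand).
AREG: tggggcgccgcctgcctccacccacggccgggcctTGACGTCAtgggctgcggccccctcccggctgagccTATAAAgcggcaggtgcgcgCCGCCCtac
EREG: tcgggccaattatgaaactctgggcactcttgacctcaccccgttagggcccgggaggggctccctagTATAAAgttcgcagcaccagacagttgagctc
HBEGF: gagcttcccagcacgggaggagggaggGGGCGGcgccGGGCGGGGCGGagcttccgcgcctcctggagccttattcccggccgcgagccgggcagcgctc
EPGN: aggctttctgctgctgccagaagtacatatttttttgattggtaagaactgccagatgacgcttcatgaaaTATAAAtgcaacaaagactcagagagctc

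AREG, EREG and EPGN each hold the letters TATAAA of a TATA box, at -29 to -24, -32 to -27 and -29 to -24 from the start site, and 10.7% of 35116 RefSeq promoters hold them within 250 bases. AREG also holds TGACGTCA, the palindrome bound by cyclic AMP responsive factors, at -65 to -58, which 1.65% of promoters hold. HBEGF holds no TATAAA but 5 GC boxes (GGGCGG or its complement), 3 of them in the printed run at -73 to -68, -63 to -58 and -58 to -53, the last pair sharing a base. A GC box occurs in 42.6% of promoters, and it was also found at -9 to -4 in AREG and at 3 places in the first TGFA promoter. Over the full 250 bases a TEAD motif (GGAATG, in 11.9% of promoters) lay at -175 to -170 in EREG, and an ETS motif (CCGGAA, in 14.5%) at -236 to -231 in AREG and in the second TGFA promoter. None of the 7 promoters searched, 1 each for AREG, EREG, HBEGF, BTC and EPGN and 2 for TGFA, held the AP-1 motif TGANTCA (6.57% of promoters) or a CArG box (1.16%), and BTC held no motif of the set. Both strands were searched. A match describes letters in a window and does not show that a factor binds there.

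The ligand mRNAs did not share an order across the lines. EREG, HBEGF and NRG1 had their lowest mean in M1 and their highest in M4, AREG, TGFA and BTC had their lowest in M1 and their highest in M3, and EPGN was highest in M2 and lowest in M4. In 4 of the 7 genes (EREG, HBEGF, TGFA and NRG1) every library without EGF lay above every library with it, where 10.6% of all 18431 genes tested did the same. These levels are the values by which the list was chosen, so nothing is read from that count. In bulk RNA, a smaller share of cells that express a gene and less RNA per cell cannot be told apart.

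**Figure D1:**
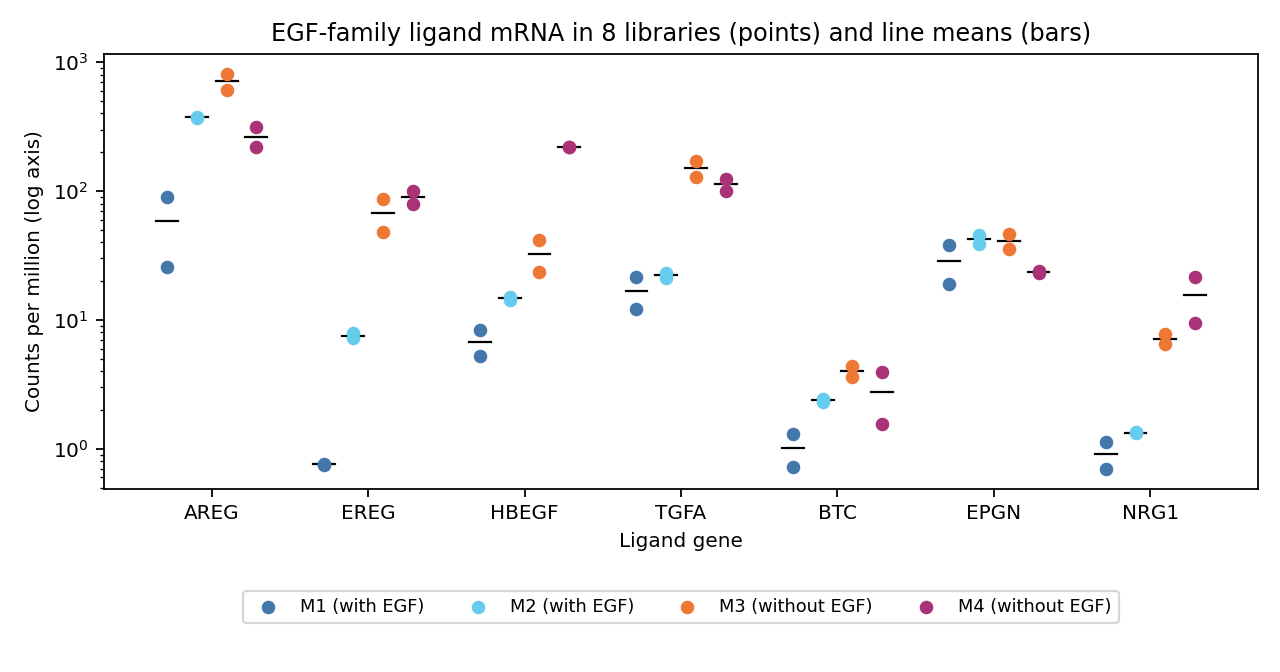
Level of each ligand mRNA in CPM (log axis) in each of the 8 libraries, with points for libraries, coloured by line, and bars for the mean of the 2 libraries of a line. EREG runs from 0.749 CPM in M1 to 100.1 CPM in M4, HBEGF stands out in M4 at 218.2 and 219.8 CPM, TGFA is at 101.0 CPM or more in M3 and M4 and at 23.3 CPM or less in M1 and M2, and EPGN stays between 18.9 and 46.7 CPM.

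AREG, which encodes amphiregulin, was at 25.8 and 90.4 CPM in M1, 377.7 and 367.2 CPM in M2, 607.0 and 811.6 CPM in M3 and 312.0 and 218.0 CPM in M4. The order of the means was M1, M4, M2, M3, and no neighbours in it overlapped. M4, grown without EGF, lay below M2, grown with it, so the libraries with EGF and without it overlapped for this gene. The mean difference across that split was 1.67 in log2(CPM + 0.1), a 3.19-fold ratio, and it was 0.88 without M1 replicate 1, the library in which AREG was lowest. Reads of AREG and AREGB can be split between the copies by the counting, but AREGB took only 0.60 to 82.02 estimated counts a library, or 0.0281% to 0.231% of the sum of both.

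EREG encodes epiregulin, a low-affinity ligand of EGFR and ERBB4. It was at 0.749 and 0.768 CPM in M1 (62 and 63 counts), 7.20 and 7.86 CPM in M2 (733 and 553 counts), 47.8 and 87.6 CPM in M3 and 79.2 and 100.1 CPM in M4. The line means were 0.759 ± 0.0135, 7.53 ± 0.468, 67.7 ± 28.1 and 89.6 ± 14.8 CPM (SD, n = 2 each). Each step from M1 to M3 was free of overlap, and M3 and M4 overlapped. The difference between the lines without EGF and with it was 4.89 in log2(CPM + 0.1), a 29.7-fold ratio, the widest of the 7 members.

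HBEGF encodes heparin-binding EGF-like growth factor. It was at 5.22 and 8.34 CPM in M1, 14.4 and 15.0 CPM in M2, 23.4 and 41.9 CPM in M3 and 218.2 and 219.8 CPM in M4. No neighbours overlapped, and both M4 libraries were above 200 CPM while the other 6 were below 50. Across the split by EGF the difference was 3.06 in log2(CPM + 0.1), and it was 2.59 without either M4 library, so both M4 libraries carried it alike.

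TGFA encodes transforming growth factor alpha, a ligand of EGFR. It was at 21.4 and 12.1 CPM in M1, 23.3 and 21.0 CPM in M2, 170.5 and 129.5 CPM in M3 and 101.0 and 124.4 CPM in M4. M1 and M2 overlapped, and M4 lay below M3 without overlap. The lines of the same medium lay close to each other, with means of 16.8 ± 6.62 and 22.1 ± 1.66 CPM with EGF and of 150.0 ± 29.0 and 112.7 ± 16.6 CPM without it (SD, n = 2 each). The difference across the split was 2.77 in log2(CPM + 0.1), a 6.81-fold ratio.

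NRG1 (ENSG00000157168), on the plus strand of chromosome 8 at 31496738 to 32713184 in GRCh37, encodes neuregulin-1, a ligand of ERBB3 and ERBB4 rather than of EGFR. It was low throughout, at 0.701 and 1.13 CPM in M1, 1.32 and 1.36 CPM in M2, 7.74 and 6.53 CPM in M3 and 21.7 and 9.47 CPM in M4. Neighbours in the order M1, M2, M3, M4 did not overlap, but the M4 libraries differed from each other (SD 8.62 CPM around a mean of 15.6 CPM, n = 2). The difference across the split was 3.09 in log2(CPM + 0.1).

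BTC encodes betacellulin, a ligand of EGFR and ERBB4, and its counts were low in every line. It was at 0.725 and 1.31 CPM in M1, 2.33 and 2.43 CPM in M2, 3.63 and 4.37 CPM in M3 and 3.94 and 1.55 CPM in M4. M4 overlapped both M2 and M3, and the difference across the split was 0.99 in log2(CPM + 0.1). EPGN, which encodes epigen, was at 38.2 and 18.9 CPM in M1, 45.3 and 39.1 CPM in M2, 35.7 and 46.7 CPM in M3 and 23.1 and 24.0 CPM in M4. All neighbours in its order overlapped, and the difference across the split was -0.12.

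Levels of different genes were compared per kilobase of merged exon length. On that scale AREG was the most abundant of the 7 ligand mRNAs in all 8 libraries, with 46.4% and 82.5% of their sum in the M1 libraries. It took 90.0% and 90.5% in M2, then 85.4% and 87.3% in M3, and was at 61.9% and 51.6% in M4. The 7 together summed to 33.9 and 66.7 CPM per kb in the M1 libraries and to 255.5 and 247.1 CPM per kb in those of M2. The sums were 433.1 and 566.1 CPM per kb in M3, the highest, and 306.9 and 257.4 CPM per kb in M4. In M4 HBEGF was in second place at 23.8% and 28.6%, while its share was at most 5.16% in any other library. EPGN took 34.2% of the sum in M1 replicate 1 and 8.59% in M1 replicate 2, and 2.28% to 5.37% in M2, M3 and M4. EREG took no more than 0.557% in M1 and M2 and reached 6.81% in M4, so the gene with the widest ratio across the lines remained a small part of the family sum. The exon length of NRG1 (21372 bp) adds up many isoforms and lowers its value per kb.

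**Figure D2:**
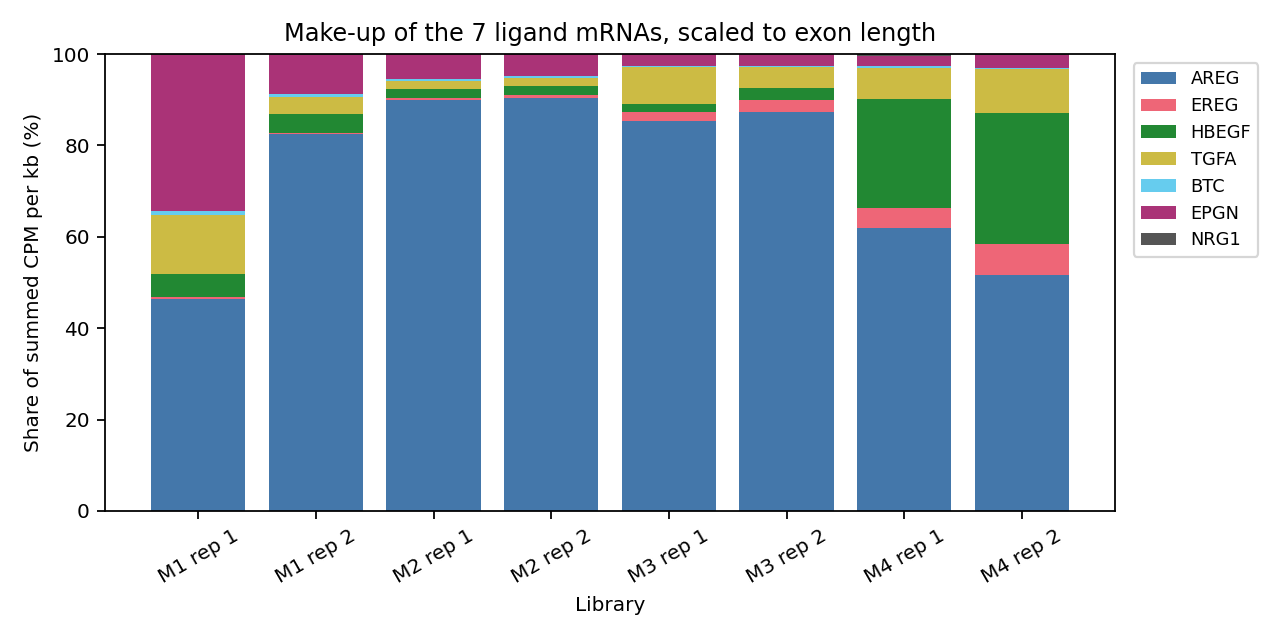
Share of each ligand in the summed CPM per kb of the 7 ligand mRNAs (%), 1 stacked bar a library. AREG fills most of every bar except that of M1 replicate 1 (46.4%), where EPGN takes 34.2%, and HBEGF takes 23.8% and 28.6% in M4.

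The difference between M2 and M1, both grown with EGF, was tested because it was not the contrast that chose the list, although the libraries are the same. EREG rose in M2 from 0.759 ± 0.0135 to 7.53 ± 0.468 CPM (SD, n = 2 each), a log2 fold change of 3.31 (SE 0.312, edgeR adjusted p = 0.00605). AREG rose from 58.1 ± 45.7 to 372.5 ± 7.47 CPM, a log2 fold change of 2.68 (SE 0.538, edgeR adjusted p = 0.0384). So 2 of the 7 members were called higher in M2, at an adjusted p under 0.05 with more than a 2-fold change, and 0 lower (0 also at an unadjusted p under 0.05 and by DESeq2), where 2.26% of all genes were called higher and 1.11% lower. The median of the members was a log2 fold change of 1.11, against -0.035 over all genes tested. All 7 point estimates were above 0.

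The members that missed the threshold differed in how near they came. HBEGF was 1.11 higher in log2 (SE 0.300, edgeR adjusted p = 0.0782), BTC 1.23 (SE 0.496, adjusted p = 0.191) and EPGN 0.56 (SE 0.304, adjusted p = 0.311). NRG1 differed by 0.55 (SE 0.425, adjusted p = 0.482) and TGFA by 0.40 (SE 0.272, adjusted p = 0.42). The TGFA estimate ran from 0.05 to 0.87 with each library left out. HBEGF passed with DESeq2 (1.10, adjusted p = 0.00854) and in edgeR with no filter on low counts (1.12, adjusted p = 1.15e-06). Its estimate was 1.12 when either M3 library was left out. That of EPGN was 1.16 without M1 replicate 1 but 0.14 without M1 replicate 2.

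Both calls rest on the library labels. With M1 replicate 2 and M2 replicate 1 exchanged, the log2 difference was 0.11 for EREG and 0.18 for AREG (edgeR adjusted p = 1 for each) and 0 of the 7 members were called, since each line then holds a library of low and a library of high EREG. As labelled, the replicates of EREG lay at 0.749 and 0.768 CPM and at 7.20 and 7.86 CPM. The AREG call was also lost when any library of M2, M3 or M4 was left out (adjusted p 0.055 to 0.218) and in a fit of M1 and M2 alone (0.0829), and the EREG call without M2 replicate 1 (0.0751) or M2 replicate 2 (0.0651), with log2 fold changes of 2.04 or more for both genes in every leave-one-out fit. Of the cell type markers, edgeR called the basal KRT14 higher in M2 than in M1 (log2 fold change 1.51, adjusted p = 0.0383). Basal KRT17 was called higher too, at a mean of 1398 CPM in M1 and 3959 CPM in M2 (edgeR adjusted p = 0.0251). KDR (-4.19, edgeR adjusted p = 0.0108) and LYZ (-7.76, adjusted p = 0.0353), both at 3.04 CPM or less, were called lower. VIM, a mesenchymal marker, moved with AREG, at 55.5 and 408.4 CPM in M1 and 847.7 and 839.3 CPM in M2. Of 6 mesenchymal markers 0 were called, VIM included (1.86, edgeR adjusted p = 0.206). The summed squamous markers were at 291.6 and 1832 CPM in the M1 libraries. The fibroblast markers given above also differed between these libraries; the part of all these markers in the result was not tested.

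The difference between M4 and M3, both grown without EGF, was led by HBEGF. HBEGF rose from 32.6 ± 13.1 CPM in M3 to 219.0 ± 1.11 CPM in M4 (SD, n = 2 each), a log2 fold change of 2.75 (SE 0.311, edgeR adjusted p = 0.003). It passed under every alternative run, with log2 fold changes of 2.38 to 3.22 and adjusted p from 2.88e-37 to 0.0348. HBEGF was the 1 member of 7 called higher, and 0 were called lower by edgeR (2 had an unadjusted p under 0.05, AREG and EPGN, and DESeq2 called 1), where 3.99% of all genes were called higher and 6.3% lower. The median of the members was -0.41, against -0.0235 over all genes. Cell type markers moved in the same comparison. The basal markers KRT14 (log2 fold change -5.24, edgeR adjusted p = 0.000948) and KRT5 (-1.02, adjusted p = 0.0255), the luminal marker MUC1 (-2.11, adjusted p = 0.00804) and the mesenchymal marker SNAI2 (-1.30, adjusted p = 0.00619) were called lower in M4, and the basal marker LAMB3 higher (1.0, adjusted p = 0.0318). Of the endothelial markers, at 1.76 CPM or less in these lines, KDR was called lower and VWF higher. Summed, the basal markers were at 13027 to 13448 CPM in M3 and 7497 to 8925 CPM in M4, the mesenchymal markers at 1331 to 2129 and 586.3 to 890.3 CPM, the squamous markers at 3213 to 4706 and 1369 to 1511 CPM, and the luminal markers at 2264 to 2427 and 2909 to 4554 CPM. CD68 was at 25.1 and 6.20 CPM in M3 and 51.4 and 39 CPM in M4. Their part in the result was not tested.

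The other members went in both directions and missed the threshold. AREG was 1.42 lower in log2 in M4 than in M3 (log2 fold change -1.42, SE 0.515, edgeR adjusted p = 0.101), and the libraries did not overlap. NRG1 was 1.12 higher (SE 0.408, adjusted p = 0.097) and EPGN differed by -0.81 (SE 0.305, adjusted p = 0.108). EREG differed by 0.40 (SE 0.266, adjusted p = 0.322), TGFA by -0.41 (SE 0.270, adjusted p = 0.321) and BTC by -0.54 (SE 0.482, adjusted p = 0.47). AREG passed without M1 replicate 1 (adjusted p = 0.00913) or M1 replicate 2 (0.00802), libraries that enter this contrast only through the shared estimate of the spread. It also passed with DESeq2 (0.0154), in edgeR with no filter on low counts (1.89e-10) and in an edgeR fit of M3 and M4 alone (0.0255). NRG1 passed with DESeq2 (1.15, adjusted p = 0.0294) and in edgeR with no filter on low counts (1.12, adjusted p = 0.00901). Its estimate was 1.62 without M4 replicate 2 and 0.41 without M4 replicate 1, so it rests on M4 replicate 1.

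**Figure D3:**
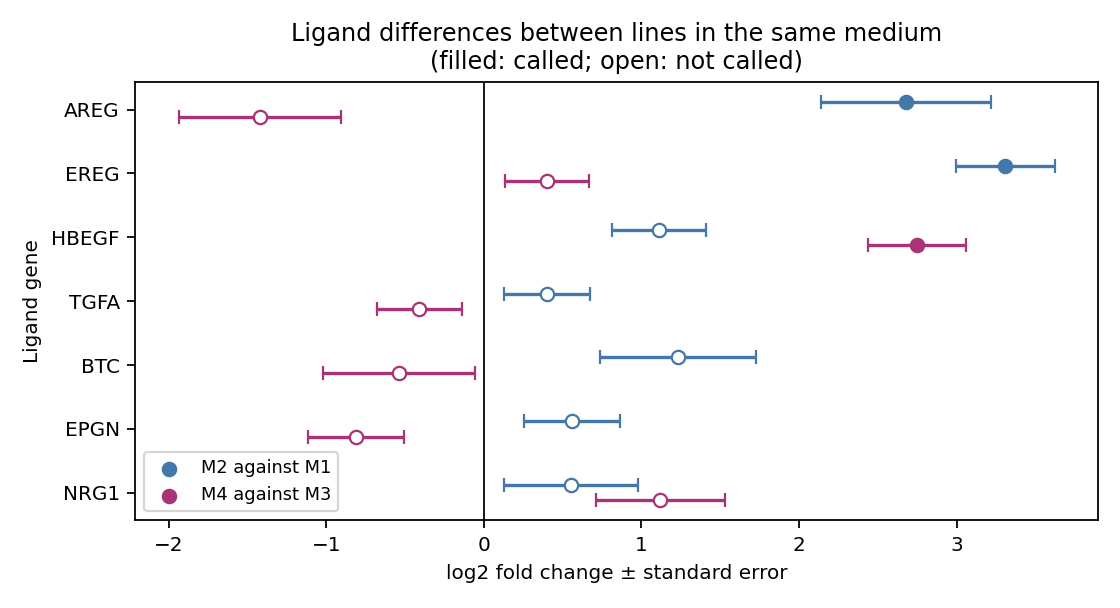
Log2 fold change with its standard error for each ligand in M2 against M1 (both with EGF) and M4 against M3 (both without EGF), from edgeR with 2 libraries a line, filled where called. AREG and EREG are called in M2 against M1, and HBEGF is called in M4 against M3.

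The ERBB ligands outside the list were at 14 CPM or less in every library, the highest value being that of NRG4 in M3 replicate 1. EGF itself, whose protein was supplied in the medium of M1 and M2, was at 0.122 to 0.653 CPM in all libraries, and NRG3 was at 0 to 0.0491 CPM. NRG4, a ligand of ERBB4, fell between M3 and M4 from 12.3 ± 2.42 to 1.91 ± 0.0192 CPM (SD, n = 2 each; log2 fold change -2.69, SE 0.369, edgeR adjusted p = 0.00548). NRG2, a ligand of ERBB3 and ERBB4 whose gene neighbours HBEGF on chromosome 5, was at 3.85 and 3.96 CPM in M3 and at 0.555 and 0.551 CPM in M4 (log2 fold change -2.82, SE 0.613, edgeR adjusted p = 0.0218). The NRG2 call was lost with the exchanged libraries (0.0784) and when any M3 or M4 library was left out (0.0558 to 0.122), and the NRG4 call in none of the alternatives.

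Of 4 receptor genes 3 were tested, and 1 of them, ERBB3, was called in M4 against M3 and across the split. The shares of all genes called higher and lower were 3.99% and 6.3% in the former and 7.08% and 6.68% in the latter. Between M2 and M1 edgeR called 0 receptors (2 had an unadjusted p under 0.05, and DESeq2 called 0). ERBB2 was at 67.4 to 130.1 CPM and was not called, with its lowest adjusted p in M2 against M1 (log2 fold change -0.58, edgeR adjusted p = 0.0645). EGFR, the receptor of AREG, EREG, HBEGF, TGFA, BTC and EPGN, was at 191.9 to 317.9 CPM in the 8 libraries and was called in none of the 3 contrasts. ERBB3, the neuregulin receptor that lacks strong kinase activity of its own, was at 60.4 and 44.5 CPM in M1, 29.9 and 30.2 CPM in M2, 10.3 and 12 CPM in M3 and 41.5 and 24.1 CPM in M4. It was lower in M3 and M4 than in M1 and M2 (log2 fold change -1.05, SE 0.188, edgeR adjusted p = 0.00569) and higher in M4 than in M3 (1.56, SE 0.270, adjusted p = 0.0109). The second call was lost with the exchanged libraries (adjusted p = 0.0705), without M3 replicate 1 (0.0584) and without M4 replicate 1 (0.0523), and the first fell short of 2-fold without M1 replicate 1 (-0.92), M4 replicate 2 (-0.87) or M3 replicate 1. ERBB4 was at 0 to 0.103 CPM, too low to be tested.

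The genes that cut and carry the ligands showed few calls. ADAM17, the main sheddase of AREG, EREG, HBEGF and TGFA, was at 36.8 to 69.2 CPM and was not called in any contrast, nor was ADAM10, the sheddase of BTC. Of 13 genes for shedding and trafficking, 0 were called by edgeR between M2 and M1 (3 had an unadjusted p under 0.05, and DESeq2 called 1), where 2.26% of all genes were called higher and 1.11% lower. RHBDF1, at 27.2 and 27.8 CPM in M1 and 14.5 and 14 CPM in M2, missed only the fold limit there (log2 fold change -0.95, edgeR adjusted p = 0.0274). In M4 against M3, ADAM10 (-0.54, edgeR adjusted p = 0.0397) and RHBDF1 (0.68, adjusted p = 0.038) missed only that limit. Across the split, ADAM9 (0.47, adjusted p = 0.024) and RHBDF2 (0.71, adjusted p = 0.0369) did so. ADAM8, a metalloprotease (log2 fold change -3.57, SE 0.420, edgeR adjusted p = 0.00334), and TIMP3 were called lower in M4 than in M3, against 6.3% of all genes. TIMP3, an inhibitor of ADAM17, had a mean of 80.2 CPM in M3 and 14.2 CPM in M4 (log2 fold change -2.50, SE 0.555, edgeR adjusted p = 0.0253), a call lost without either M2 library (0.0704 and 0.0714), M3 replicate 1 (0.102), M4 replicate 1 (0.145) or M4 replicate 2 (0.0833). Across the split ADAM8 (1.29, SE 0.275, edgeR adjusted p = 0.0117) and ADAM19 (2.07, SE 0.421, adjusted p = 0.00961) were called higher in the mean of M3 and M4, against 7.08% of all genes. ADAM8 was high in M3 only, at 17.5 and 35.3 CPM. In M4 it was at 2.02 and 2.43 CPM, within the range of M1 and M2 (1.53 to 4.68 CPM). The ADAM8 call was lost with the exchanged libraries (0.0909), without M2 replicate 1 (0.051) and, short of 2-fold, without M3 replicate 2 (0.99), and the ADAM19 call without M2 replicate 2 (0.0503). Of 10 receptor inhibitors, among them ERRFI1, CBL and LRIG1, 0 were called by edgeR in any of the 3 contrasts. Of the 10, 1 gene between M2 and M1, 6 between M4 and M3 and 3 across the split had an unadjusted p under 0.05, and DESeq2 called 0, 2 and 1. The shares of all genes called higher and lower were 2.26% and 1.11%, 3.99% and 6.3%, and 7.08% and 6.68% in the same order. Nothing is read from 0 of 10 beside them. CBLB (0.92, edgeR adjusted p = 0.0129) and ERRFI1 (-0.89, adjusted p = 0.0275) missed only the fold limit in M4 against M3, as did CBL across the split (0.45, adjusted p = 0.0353).

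The ERK feedback and output list held more calls than the other lists across the split by EGF, where 7.08% of all genes were called higher and 6.68% lower. The list was drawn up with earlier results of these libraries known, so its count is not independent evidence of a direction. There 13 of its 21 genes were called higher by edgeR and 0 lower in M3 and M4 (0 lower also at an unadjusted p under 0.05 and by DESeq2), with a median log2 fold change of 1.31 against -0.00688 over all genes. DUSP5, a phosphatase of nuclear ERK, was at 3.83 and 3.56 CPM in M1, 8.50 and 8.32 CPM in M2, 22.8 and 23.0 CPM in M3 and 59.4 and 76.9 CPM in M4 (log2 fold change 2.82 across the split, SE 0.123, edgeR adjusted p = 3.88e-05). FOSL1, an AP-1 subunit, was higher by 2.52 (SE 0.138, adjusted p = 5.44e-05), and SPRY4, an inhibitor of RAS-ERK signalling, by 2.17 (SE 0.268, adjusted p = 0.00134). Of the 13 calls, 5 were lost with some library left out, those of DUSP4 (adjusted p 0.0538 to 0.0866 in those fits), SPRY2 (0.0687 to 0.133), IER3 (0.0534 and 0.0547), ETV4 (0.0547 and 0.0568 without an M2 library, and 0.92 in log2 without M1 replicate 1) and CCND1 (0.93 in log2 without M3 replicate 2). DUSP5 (1.19, edgeR adjusted p = 0.0109), FOSL1 (1.26, adjusted p = 0.013) and CXCL8 (1.76, adjusted p = 0.0283) were also called higher in M2 than in M1, where 2.26% of all genes were called higher and 1.11% lower. With M1 replicate 2 and M2 replicate 1 exchanged, or without either M2 library, none of these 3 passed, and CXCL8 also missed without M1 replicate 1 (0.088) and in a fit of M1 and M2 alone (0.0654). Between M4 and M3 the list went in both directions, where 3.99% of all genes were called higher and 6.3% lower. DUSP5 (1.57, edgeR adjusted p = 0.00231) and CXCL8 (1.40, adjusted p = 0.0226) were called higher in M4, and SPRY1, an inhibitor of RAS-ERK signalling (-2.33, adjusted p = 0.022), and FOS, an AP-1 subunit (-1.89, adjusted p = 0.0355), lower. Of these, DUSP5 (0.0985), CXCL8 (0.268) and FOS (0.14) missed with the exchanged libraries, SPRY1 and FOS missed without any 1 of the M3 and M4 libraries, FOS also without either M2 library and with the replicate block (0.0552), and CXCL8 missed without M4 replicate 1 or either M3 library.

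Over all 70 genes of the pathway lists, 68 were tested. Between M2 and M1 3 were called (4.41%, all higher), where 2.26% of all genes were called higher and 1.11% lower. Between M4 and M3 it was 14 (20.6%, 7 in each direction), where the shares of all genes were 3.99% and 6.3%, and across the split 21 (30.9%, 19 higher and 2 lower), where they were 7.08% and 6.68%. Cell type markers also moved across the split. Of 6 luminal markers 2 were called higher (KRT18 and EPCAM) and 2 lower. The lower ones were MUC1 (-4.3, edgeR adjusted p = 6.94e-05) and GATA3 (-1.93, adjusted p = 0.000112). Basal LAMB3 (2.06, adjusted p = 0.000318), squamous SPRR1B and SPRR2A and immune CD68 were called higher, and DCN, PDGFRA and KDR lower. The part of these markers in the counts was not tested. Among 11 genes listed as inputs to ligand transcription, CCN1 and CCN2 are targets of YAP rather than inputs themselves. Of the 11, ETS1, WWTR1, CCN2 and SMAD3 were called higher and ETS2 lower in M3 and M4 than in M1 and M2. CCN1 was not called across the split (-0.03, edgeR adjusted p = 0.959) or in M4 against M3 (1.30, adjusted p = 0.0708). YAP1 itself was called in neither (-0.11, adjusted p = 0.437, and -0.05, adjusted p = 0.826). In M4 against M3, 4 of the 11 were called higher, CCN2 among them, and a link to HBEGF was not tested. These were ETS1, an ETS-family factor (1.40, SE 0.256, edgeR adjusted p = 0.0126), CCN2, a YAP target (1.86, SE 0.473, adjusted p = 0.0352), JUN, an AP-1 subunit (1.39, SE 0.210, adjusted p = 0.00729), and SMAD3, a mediator of TGF-beta signalling (1.0, SE 0.182, adjusted p = 0.0121). All 4 calls were lost in some fits with a library left out, JUN without M4 replicate 1 (0.0509), SMAD3 without either M4 library (0.055 and 0.0611) or at 0.91 in log2 without M3 replicate 2, ETS1 at 1.18 to 1.44 (adjusted p 0.0501 to 0.0705) and CCN2 at 0.90 to 1.95 (0.068 to 0.197), and CCN2 was lost with the replicate block (0.0523) and the exchanged libraries (0.0942). The SMAD3 estimate lies at the 2-fold limit itself, and several other settings put it just short of that. The counts depended on single libraries, since 3 genes were called between M4 and M3 without M4 replicate 1 and 8 without M3 replicate 1, and 0 between M2 and M1 without either M2 library but 10 without M1 replicate 2.

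**Figure D4:**
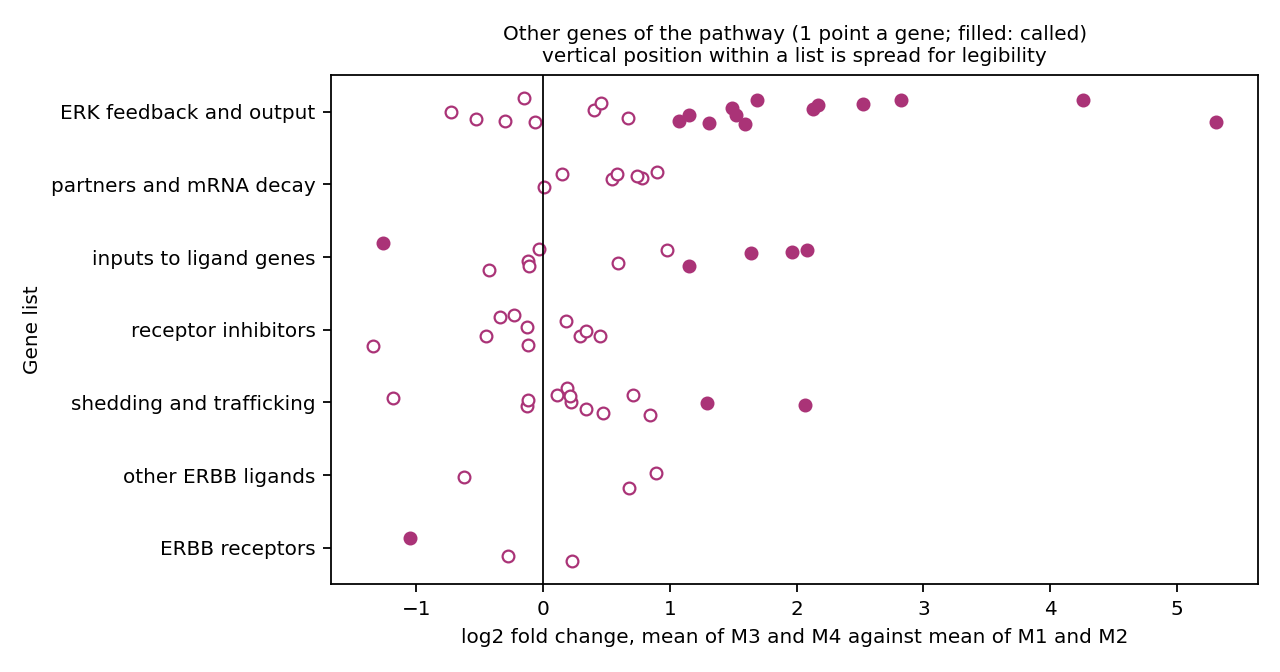
Log2 fold change of each tested pathway gene in M3 and M4 against M1 and M2, by list, 1 point a gene and filled where called. Of the 21 ERK feedback and output genes 13 are called higher. Of 3 receptors tested 1 is called (ERBB3, -1.05), and of 10 receptor inhibitors 0. Of all genes 7.08% were called higher and 6.68% lower.

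The neighbours of the chromosome 4 cluster were looked at because 4 members share it. Of 10 protein-coding genes within 500 kb of a member there, 7 were tested, and 4 of them were called higher in M3 and M4 than in M1 and M2, CXCL1, CXCL3, PARM1 and PF4, where 7.08% of all genes were called higher. CXCL1, a neutrophil chemokine, was at 7.70 and 18.3 CPM in M1, 11.3 and 10.8 CPM in M2, 99.9 and 107.2 CPM in M3 and 58.5 and 22.1 CPM in M4 (log2 fold change 2.43, SE 0.371, edgeR adjusted p = 0.00373). PF4 was under 1 CPM in every library, and its call was lost without M4 replicate 1 (0.0746), as was that of CXCL3 when an M2 or M4 library or M3 replicate 2 was left out (0.0503 to 0.0858) and that of PARM1 with the exchanged libraries (0.0729). In M2 against M1, where AREG and EREG rose, the call among these neighbours was MTHFD2L, an enzyme of mitochondrial folate metabolism, at 14.7 and 13.7 CPM in M1 and 31.2 and 33 CPM in M2 (log2 fold change 1.17, SE 0.250, adjusted p = 0.041). That call was lost when any M1 or M2 library was left out, with the replicate block (0.0578), with library sizes taken as total counts (0.0656) and with the exchanged libraries (0.03, adjusted p = 1). Around all the members, 46 neighbours of 57 were tested, of which 2 were called higher and 1 lower between M2 and M1, 1 higher and 5 lower between M4 and M3, and 5 higher and 5 lower across the split. The shares of all genes called higher and lower were 2.26% and 1.11%, 3.99% and 6.3%, and 7.08% and 6.68% in the same order.

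The genes most like each member were found as the smallest root mean square difference in log2(CPM + 0.1), centred over the 8 libraries, among 13289 genes with a mean of at least 1 CPM. For AREG these were ROBO4 (0.455), VIM (0.483) and SERPINA1 (0.532), each lowest in M1 replicate 1 and highest in an M3 library. For EREG they were NT5E (0.654), RPSAP52 (0.698) and CXCL8 (0.763), a looser match than for any other member. NT5E, the ectoenzyme CD73, was at 6.36 and 4.53 CPM in M1, 42.5 and 39.1 CPM in M2, 318.2 and 212.4 CPM in M3 and 272.3 and 199.4 CPM in M4. For HBEGF they were ACP7 (0.376), NTN1 (0.396) and DAPP1 (0.478), each highest in M4. For TGFA they were TRABD2A (0.361), DAW1 (0.419) and SNTB1 (0.426), and for NRG1 they were ZNF266 (0.385), SEMA3B (0.408) and ANXA3 (0.417). BTC was closest to STAC (0.262), AADAT (0.276) and DYRK3 (0.280), and EPGN, whose range from lowest to highest library was the narrowest of the 7, to PI4K2B (0.172) and ZFAND4 (0.173). These are descriptions over 8 libraries that share lines and medium.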

How the data were processed

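Poly A+ RNA from 8 libraries was sequenced with paired ends. The authors trimmed reads with Trimmomatic, aligned them to hg19 with STAR and deposited RSEM expected counts per gene on GENCODE v19, which are not normalized. Whether strand was used in counting is not given in the sources used here. Here the counts were rounded (12.8% of values were not whole). Of 29502 genes with a count, 27935 matched GENCODE release 44 on GRCh37, which gave symbols and exon lengths. TMM-scaled counts of the 18431 genes kept by filterByExpr entered a single robust quasi-likelihood model in edgeR (4.0.16; R 4.3.3), with a coefficient for each line and all 8 libraries, and p-values were adjusted by Benjamini-Hochberg. Calls needed an adjusted p below 0.05 and a change of more than 2-fold. Standard errors are log2 fold changes divided by the root of F. Library totals of 69669970 to 107350344 set the precision, and p-values measure the spread between 2 cultures a line. The fit was tested on simulated counts. Python 3.11.15 with pandas 2.3.3, numpy 2.4.6 and matplotlib 3.10.9 did the rest.

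The members, gene lists, tests and alternatives were chosen with earlier results of these data known. Genes named are the members, AREGB, HRAS, the pathway and marker lists, protein-coding neighbours within 500 kb and the 3 genes nearest in pattern to each member, of which 1 is not reported here. Alternatives were RLE size factors, total counts, DESeq2 1.42.0, other filters, a replicate block, fits of only the lines compared, leaving out each library, the exchanged libraries, AREG summed with AREGB, no fold limit and other pseudocounts. Promoters came from RefSeq (GRCh38.p14) in a table of 35116, in which 6 members were searched. Same-numbered replicates deviated together with r of -0.0866 to 0.219 across 13495 genes, so the numbers were not taken as pairs.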

Additional observations from a re-analysis of the deposited data

How the results depend on the processing

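The number of members called between M2 and M1 (2) was 0 with M1 replicate 2 and M2 replicate 1 exchanged, 1 in a fit of only these lines, and 0 to 3 with each library left out. Between M4 and M3 the number (1) was 3 with DESeq2, 3 with no filter, 2 in a fit of only these lines, and 1 to 2 with each library left out. The pathway count between M2 and M1 (3) was 8 with DESeq2, 10 with no filter, 0 with the exchange, and 0 to 10 with each library left out. Between M4 and M3 (14) it was 8 with the exchange and 3 to 20 with each library left out, and across the split (21) it was 16 to 23. The exchange also turned the direction of TGFA (-0.44), EPGN (-0.53), DUSP5 (-0.06), CXCL8 (-0.03) and HRAS (-0.10) between M2 and M1 in log2. The causes of these changes were not tested, apart from the fewer libraries or the relabelling by construction. Of the alternative values for single members in the within-medium tests, 211 kept direction and side of the threshold, 14 gained a call, 11 lost it and 2 reversed. With the replicate block, 3 members were called between M2 and M1, the added call being HBEGF (1.15, edgeR adjusted p = 0.0442), and 1 between M4 and M3. The pathway counts with the block were 3, 17 and 22. Replicate numbers were not taken as pairs, but pairing was not excluded. Same-numbered replicates of M3 and M4 deviated together with r of 0.219, and the check for M1 and M2 rests on the library labels. At these depths the low members, NRG1, BTC and EREG in M1, rest on 58 to 107 counts a library there, and 2 libraries a line limit every test.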
